A study of Rattus norvegicus with 64 samples.

Results

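Interferon-stimulated genes were followed in rat lung after inhalation of fracking sand dust, which is raised from the silica-rich sand used to prop open wells in hydraulic fracturing. The genes were named in a list of 38 symbols, not picked by a cut on measured values, though earlier results of these data were known. Of these, 37 had a row in both count tables, which hold 30045 symbols, and all 37 passed the filter on low counts in both studies. Xaf1 was not analysed here. RNA sequencing was run on a piece of lung from male Sprague-Dawley rats, an outbred strain, that had breathed fracking sand dust or filtered air, whole-body, 6 hours daily over 4 days. Lungs were taken 1, 7 or 27 days after exposure. In the 10 mg/m3 study there were 5 dust and 5 air rats at each of days 1 and 7, and 4 dust and 4 air rats at day 27. In the 30 mg/m3 study each of the 6 groups had 6 rats. Each study had air rats of its own, and since each dose is a study of its own, dose and study cannot be told apart. Every library carried its own number in its title, taken here as the rat, and nothing else shows that the libraries are separate animals, so the p-values measure the spread between these libraries.

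Type I interferons are secreted by cells that sense foreign or misplaced nucleic acid. They bind a receptor whose Janus kinases phosphorylate STAT2, which joins IRF9 in a complex that binds a short DNA element in front of its target genes. The targets sense RNA, degrade it, stop translation or hold back virus particles, and in lung they are known as the signature of respiratory virus infection. Interferon gamma, made by T and natural killer cells, acts through a different receptor and induces a partly shared set that includes Irf1 and Gbp2.

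The 64 libraries held 3420235 to 12359518 counts. Lung markers were present in all of them, with Sftpc, a surfactant protein of alveolar type 2 cells, at 6613 to 13940 CPM. Counts of mitochondrial rRNA took 0.0961 to 4.434% of a library at 10 mg/m3 and 0.105 to 1.66% at 30 mg/m3. Air rats 51 and 53 of day 1 at 30 mg/m3, and dust rat 27 and air rat 21 of day 1 at 10 mg/m3, stood apart from their groups, and results that change without them are given both ways. Levels are CPM, counts scaled to library size with TMM factors, which are not corrected for gene length, so they are compared between rats and not between genes. In these bulk samples, fewer cells of a type and less RNA per cell cannot be told apart.

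The response element was looked for in the promoters, since the complex of STAT2 and IRF9 binds it in front of its target genes. RefSeq promoters (build GRCr8, the 250 bases before to 50 bases after each gene's start) were found for 26 of the 37 members. The motif GAAANNGAA, the core of the element, was searched on both strands, with overlapping matches allowed. It stood in 18 of the 26 promoters (69.2%) and in 2608 of 27457 promoters of all genes (9.5%). The members were listed as interferon-stimulated genes, so a higher share of the motif among them says nothing about dust. The promoters of 5 members that lead comparisons or belong to the panel followed rat by rat are shown, because they show how the spacing to the start differs. Capitals mark the motif, which appears as its reverse complement where it lies on the opposite strand.
Oas1a (chr12:41330216-41330515, plus strand): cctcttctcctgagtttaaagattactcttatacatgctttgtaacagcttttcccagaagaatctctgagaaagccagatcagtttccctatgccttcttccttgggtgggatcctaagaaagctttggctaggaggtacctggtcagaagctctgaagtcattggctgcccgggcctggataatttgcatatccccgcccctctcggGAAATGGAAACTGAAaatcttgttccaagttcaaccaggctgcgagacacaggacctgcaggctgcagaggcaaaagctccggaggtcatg
Irf7 (chr1:205799974-205800273, minus strand): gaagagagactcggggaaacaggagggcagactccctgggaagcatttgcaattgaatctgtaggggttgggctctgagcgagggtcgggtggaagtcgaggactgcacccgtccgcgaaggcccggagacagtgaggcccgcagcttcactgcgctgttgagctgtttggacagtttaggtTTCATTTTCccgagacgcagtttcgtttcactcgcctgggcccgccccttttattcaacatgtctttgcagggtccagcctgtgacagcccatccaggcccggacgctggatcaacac
Gbp2 (chr2:234005477-234005776, plus strand): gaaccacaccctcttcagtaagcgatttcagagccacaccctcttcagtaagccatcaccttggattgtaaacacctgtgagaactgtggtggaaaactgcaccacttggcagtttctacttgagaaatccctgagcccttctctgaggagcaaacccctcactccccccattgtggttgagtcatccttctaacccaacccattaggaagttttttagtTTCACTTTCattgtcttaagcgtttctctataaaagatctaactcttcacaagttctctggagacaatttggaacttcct
Ifi44 (chr2:243303791-243304090, minus strand): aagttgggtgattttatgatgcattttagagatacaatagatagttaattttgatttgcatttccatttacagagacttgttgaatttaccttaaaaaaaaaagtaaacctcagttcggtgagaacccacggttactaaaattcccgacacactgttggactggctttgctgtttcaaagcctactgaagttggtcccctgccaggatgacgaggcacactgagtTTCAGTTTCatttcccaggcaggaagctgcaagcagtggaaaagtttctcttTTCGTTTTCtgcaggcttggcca
Rsad2 (chr6:48788071-48788370, minus strand): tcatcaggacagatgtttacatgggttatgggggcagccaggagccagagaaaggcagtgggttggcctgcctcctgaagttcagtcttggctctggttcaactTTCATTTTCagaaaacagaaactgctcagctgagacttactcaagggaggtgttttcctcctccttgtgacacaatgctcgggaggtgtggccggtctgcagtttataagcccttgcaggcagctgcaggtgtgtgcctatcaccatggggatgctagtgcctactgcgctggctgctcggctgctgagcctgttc
Oas1a held a pair of overlapping matches at bases -41 to -27 from the start. In Gbp2 the match lay at -30 to -22, in Irf7 at -68 to -60 and in Rsad2 at -146 to -138, each on the opposite strand. Ifi44 had one match before the start, at -25 to -17, and one after it, at 28 to 36. The letters were not found in the windows of Mx1, Oasl, Irf1, Irf9, Stat2, Herc6, Parp9 and Trim25, which says only that this string is not there. Several members lie next to each other in the same assembly with no protein-coding gene between them, namely Ifit2 and Ifit3, Oas1k, Oas3 and Oas2, Oasl and Oasl2, Ifi44 and Ifi44l, Rsad2 and Cmpk2, and Parp9, Dtx3l and Parp14. Close relatives (the Oas1 genes, Mx1 and Mx2, the Ifit genes) and overlapping neighbours such as Parp9 and Dtx3l may share reads, and the counting's strand setting is not stated in any label used here. Their separate values are therefore less certain.

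All members were detected in every lung, with the lowest single value 1 count, for Ifit1. The transcription factors come first. Irf7, which amplifies interferon production, ranged from 37.2 to 311 CPM, with group means between 67.9 CPM (dust rats of day 27 at 10 mg/m3) and 184 CPM (air rats of day 1 at 30 mg/m3). Irf1, the factor shared with interferon gamma, ran from 106 to 177 CPM over the rats, and its group means from 129 CPM in the air rats of day 7 at 30 mg/m3 to 159 CPM in the dust rats of day 1 at 30 mg/m3. Irf9, the DNA-binding part of the STAT complex, spanned 63.6 to 120.0 CPM, its group means lying between 82.6 CPM (air rats of day 27 at 10 mg/m3) and 101 CPM (air rats of day 1 at 30 mg/m3). Stat2, its signalling partner, ranged from 73.3 to 149 CPM, with group means between 99.5 CPM (air rats of day 1 at 10 mg/m3) and 127 CPM (air rats of day 27 at 30 mg/m3). Across these groups Irf7 varied most of the 4 factors, and the ratio of the highest to the lowest group mean was 1.24 for Irf1, 1.22 for Irf9 and 1.28 for Stat2.

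The sensors of nucleic acid varied little. Ddx58, which encodes RIG-I, ranged from 55.1 to 116.6 CPM, with group means between 73.7 CPM (dust rats of day 27 at 10 mg/m3) and 97.3 CPM (air rats of day 1 at 30 mg/m3). Ifih1, which encodes the long-RNA sensor MDA5, ran from 58.5 to 98.4 CPM over the rats, and its group means from 71.2 CPM in the dust rats of day 27 at 10 mg/m3 to 86.2 CPM in the dust rats of day 1 at 30 mg/m3. Dhx58, which encodes their regulator LGP2, spanned 18.6 to 38.4 CPM, its group means lying between 24.3 CPM (dust rats of day 27 at 10 mg/m3) and 34.9 CPM (air rats of day 1 at 30 mg/m3). Zbp1, a sensor of Z-form nucleic acid that can trigger cell death, ranged from 7.6 to 14.6 CPM, with group means between 10.3 CPM (air rats of day 7 at 10 mg/m3) and 11.7 CPM (air rats of day 1 at 30 mg/m3). Eif2ak2, which encodes the RNA-activated kinase PKR that stops translation, ran from 61.8 to 179 CPM over the rats, and its group means from 94.9 CPM in the dust rats of day 27 at 10 mg/m3 to 144 CPM in the air rats of day 1 at 30 mg/m3.

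The 2'-5' oligoadenylate synthetases make the messenger that switches on RNase L. Oas1a ranged from 8.18 to 36.4 CPM, with group means between 11.4 CPM (dust rats of day 27 at 10 mg/m3) and 25.3 CPM (air rats of day 1 at 30 mg/m3). Oas1b, whose mouse relative is known for resistance to flaviviruses, ran from 7.68 to 30.6 CPM over the rats, and its group means from 14.4 CPM in the dust rats of day 27 at 10 mg/m3 to 23.4 CPM in the air rats of day 1 at 30 mg/m3. Oas1k, a further member of the Oas1 cluster, spanned 1.06 to 11.8 CPM, its group means lying between 2.85 CPM (air rats of day 7 at 10 mg/m3) and 7.15 CPM (air rats of day 1 at 30 mg/m3). Oas2, a larger synthetase, ranged from 6.53 to 40.1 CPM, with group means between 15.4 CPM (air rats of day 7 at 30 mg/m3) and 28.6 CPM (air rats of day 1 at 30 mg/m3). Oas3, the largest of the family, ran from 1.52 to 7.54 CPM over the rats, and its group means from 2.69 CPM in the air rats of day 27 at 10 mg/m3 to 5.1 CPM in the air rats of day 1 at 30 mg/m3. Oasl, a relative with ubiquitin-like domains, spanned 5.68 to 21.4 CPM, its group means lying between 9.43 CPM (dust rats of day 27 at 10 mg/m3) and 15.2 CPM (air rats of day 1 at 30 mg/m3). Oasl2, its neighbour with the same kind of domains, ranged from 35.8 to 81.7 CPM, with group means between 44.8 CPM (dust rats of day 7 at 30 mg/m3) and 63.5 CPM (air rats of day 1 at 10 mg/m3). Of these 7 genes, only Oasl2 had its highest group mean outside the air rats of day 1 at 30 mg/m3.

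The antiviral effectors held the widest spans. Mx1, a dynamin-like GTPase that blocks influenza virus in the mouse, ranged from 41.6 to 196 CPM, with group means between 78.5 CPM (air rats of day 27 at 10 mg/m3) and 166 CPM (air rats of day 1 at 30 mg/m3). Mx2, a related GTPase, ran from 74.3 to 300.3 CPM over the rats, and its group means from 115 CPM in the dust rats of day 27 at 10 mg/m3 to 209 CPM in the air rats of day 1 at 30 mg/m3. Ifit1, which binds viral RNA that lacks the host's cap methylation, spanned 0.303 to 3.84 CPM, its group means lying between 0.718 CPM (dust rats of day 1 at 10 mg/m3) and 1.87 CPM (dust rats of day 27 at 30 mg/m3). Ifit2, of the same family of repeat proteins, ranged from 56.9 to 131 CPM, with group means between 75.8 CPM (air rats of day 7 at 10 mg/m3) and 109 CPM (air rats of day 1 at 30 mg/m3). Ifit3, which pairs with them, ran from 17.9 to 79.6 CPM over the rats, and its group means from 26.1 CPM in the dust rats of day 27 at 10 mg/m3 to 57.9 CPM in the air rats of day 1 at 30 mg/m3. Rsad2, which encodes viperin, a radical SAM enzyme that makes a chain-terminating nucleotide, spanned 17.2 to 2299 CPM, its group means lying between 22.4 CPM (dust rats of day 27 at 10 mg/m3) and 638 CPM (dust rats of day 1 at 30 mg/m3). Cmpk2, the nucleotide kinase next to it, ranged from 24.5 to 98 CPM, with group means between 29.1 CPM (air rats of day 27 at 10 mg/m3) and 59 CPM (dust rats of day 1 at 30 mg/m3). Isg20, an RNA exonuclease, ran from 9.13 to 39.8 CPM over the rats, and its group means from 12.4 CPM in the dust rats of day 27 at 10 mg/m3 to 26.4 CPM in the dust rats of day 1 at 30 mg/m3. Bst2, which encodes tetherin and holds budding virus on the cell, spanned 12.4 to 182 CPM, its group means lying between 29.3 CPM (dust rats of day 1 at 30 mg/m3) and 96.3 CPM (air rats of day 27 at 10 mg/m3). Gbp2, a guanylate-binding GTPase that attacks the vacuoles of pathogens, ranged from 91.9 to 196 CPM, with group means between 113 CPM (air rats of day 27 at 10 mg/m3) and 164 CPM (air rats of day 1 at 30 mg/m3). Rsad2 stood alone in this list with group means 28.4-fold apart. The next widest were Bst2 (3.28-fold), Irf7 (2.71-fold) and Ifit1 (2.6-fold).

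The ubiquitin-like modifier system and the remaining members followed. Isg15, the modifier itself, ranged from 18.3 to 60.4 CPM, with group means between 25.1 CPM (dust rats of day 27 at 10 mg/m3) and 42.4 CPM (air rats of day 1 at 30 mg/m3). Usp18, which removes it and damps receptor signalling, ran from 13.8 to 62.2 CPM over the rats, and its group means from 22.4 CPM in the dust rats of day 27 at 10 mg/m3 to 41.5 CPM in the air rats of day 1 at 30 mg/m3. Herc6, its ligase in mice, spanned 52 to 168 CPM, its group means lying between 87.1 CPM (air rats of day 27 at 30 mg/m3) and 146 CPM (air rats of day 7 at 10 mg/m3). Trim25, the ubiquitin ligase of RIG-I, ranged from 40.01 to 87.2 CPM, with group means between 49.6 CPM (dust rats of day 1 at 30 mg/m3) and 78.5 CPM (dust rats of day 27 at 10 mg/m3). Parp9, an ADP-ribosyltransferase family member, ran from 61.2 to 177 CPM over the rats, and its group means from 107 CPM in the dust rats of day 27 at 10 mg/m3 to 149 CPM in the dust rats of day 1 at 30 mg/m3. Dtx3l, its ubiquitin ligase partner, spanned 31.6 to 54.2 CPM, its group means lying between 36.8 CPM (dust rats of day 27 at 10 mg/m3) and 45.6 CPM (air rats of day 1 at 30 mg/m3). Parp14, a relative of Parp9, ranged from 159 to 312 CPM, with group means between 204 CPM (air rats of day 7 at 30 mg/m3) and 252 CPM (air rats of day 7 at 10 mg/m3). Ifi27, a small mitochondrial protein gene, ran from 252 to 761 CPM over the rats, and its group means from 325 CPM in the dust rats of day 27 at 10 mg/m3 to 519 CPM in the dust rats of day 1 at 30 mg/m3. Ifi44, induced by interferon and linked to damping of its own pathway, spanned 31.8 to 99.8 CPM, its group means lying between 53 CPM (air rats of day 27 at 30 mg/m3) and 82.3 CPM (air rats of day 7 at 10 mg/m3). Ifi44l, its neighbour, ranged from 15.4 to 65.4 CPM, with group means between 30.6 CPM (dust rats of day 27 at 10 mg/m3) and 45 CPM (air rats of day 1 at 30 mg/m3). Rtp4, which codes for a chaperone of receptor transport, ran from 27.9 to 106 CPM over the rats, and its group means from 47.5 CPM in the air rats of day 27 at 30 mg/m3 to 75.5 CPM in the air rats of day 1 at 30 mg/m3. In all, 22 of the 37 members had their highest group mean in air rats of day 1 at 30 mg/m3, and 18 had their lowest in dust rats of day 27 at 10 mg/m3. The median ratio of the highest to the lowest group mean was 1.60.

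Within groups the members tended to be high or low together in the same rat. The mean log2 CPM over the 37 members had a pooled within-group SD of 0.221 at 10 mg/m3 and 0.171 at 30 mg/m3. In 23 of 64 rats at least 30 of the 37 members lay on the same side of their group means, above in 13 rats and below in 10. Dust rat 30 of day 1 at 10 mg/m3 had 36 members above its group mean. Dust rat 47 of day 7 at 10 mg/m3 had 1 above and 36 below. Such rats stood in dust groups and in air groups, and more of them were dust rats than air rats. Among the air rats were rat 87 of day 27 at 30 mg/m3 with 34 above and rat 1 of day 27 at 10 mg/m3 with 2 above.

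**Figure D1:**
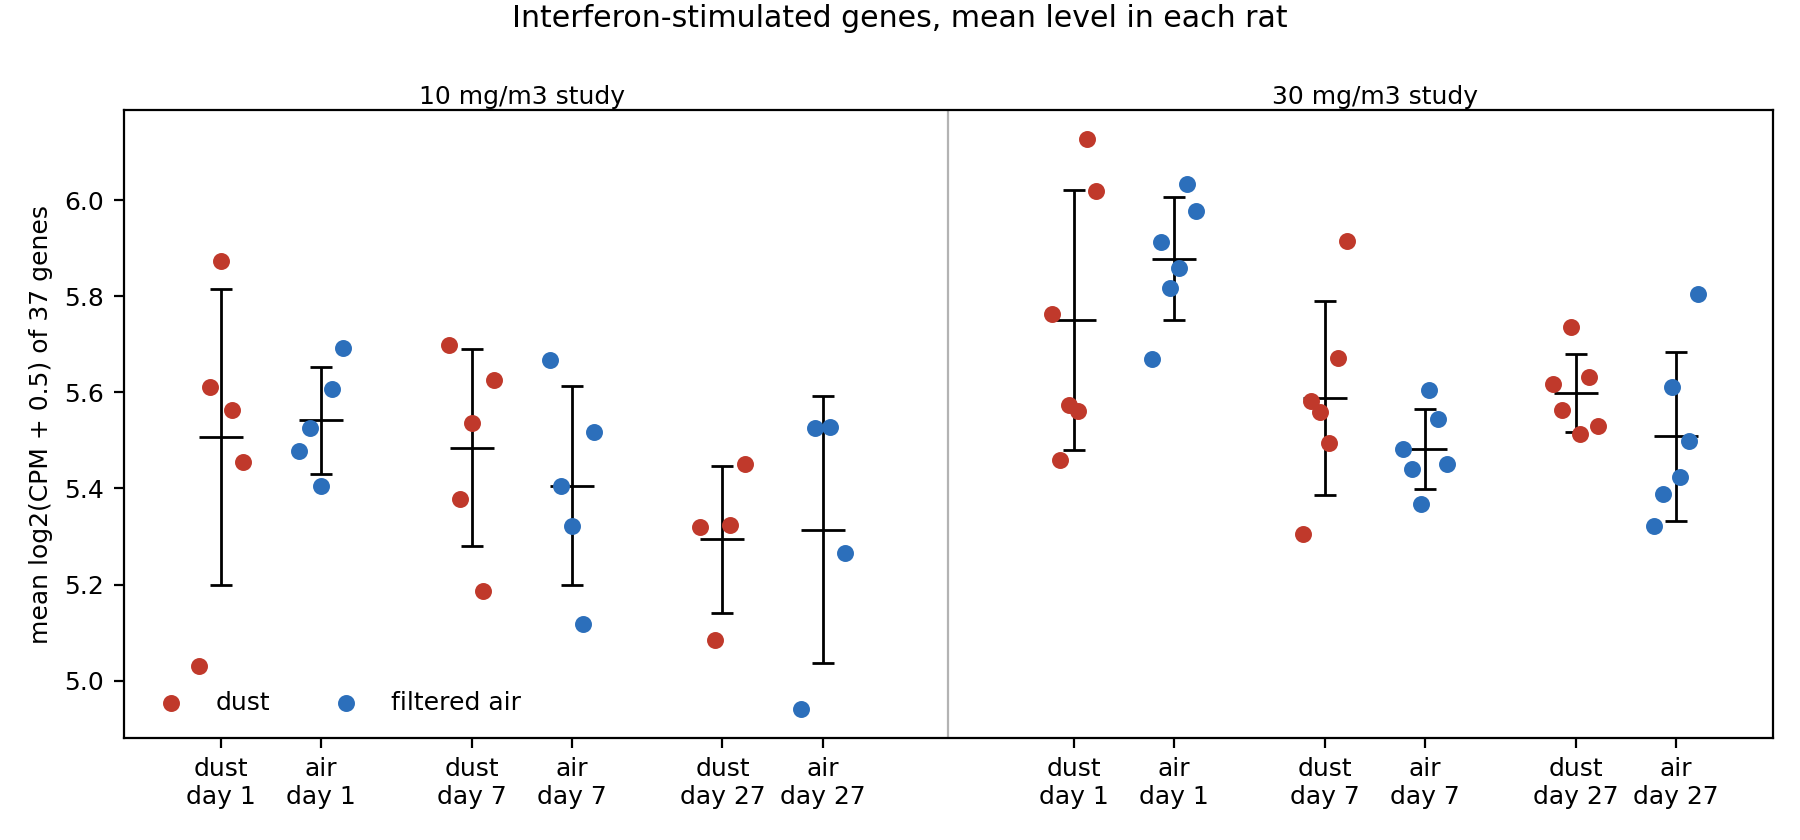
Mean log2 (CPM + 0.5) over the 37 interferon-stimulated genes in each of the 64 rats, by study, day and treatment, with group means and SD. Dust and air rats overlap on every day, from 5.51 ± 0.31 and 5.54 ± 0.11 at day 1 of the 10 mg/m3 study to 5.6 ± 0.08 and 5.51 ± 0.18 at day 27 of the 30 mg/m3 study.

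The plot of the mean level by rat shows these groups. At day 1 of the 10 mg/m3 study the mean was 5.51 ± 0.31 in dust rats and 5.54 ± 0.11 in air rats (SD). At day 7 it was 5.49 ± 0.21 in dust rats and 5.41 ± 0.21 in air rats, and at day 27 it was 5.29 ± 0.15 in dust rats and 5.32 ± 0.28 in air rats. In the 30 mg/m3 study it was 5.75 ± 0.27 in dust rats and 5.88 ± 0.13 in air rats at day 1. At day 7 it was 5.59 ± 0.20 in dust rats and 5.48 ± 0.08 in air rats, and at day 27 it was 5.6 ± 0.08 in dust rats and 5.51 ± 0.18 in air rats.

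How far each member went with the rest was counted as the number of rats, of 64, in which it lay on the same side of its group mean as the mean of the other 36 members. These rats share their library depth and scaling, so the counts are descriptions. The median over members was 45 rats. Irf7 led with 55 rats, followed by Ifit2 with 54, and Ifit3 and Oas1b with 52 each. Ifit1 (27 rats), Bst2 (30), Oas1k (35) and Trim25 (35) went with the rest in about as many rats as against it. Bst2 and Trim25 lay on the same side as the mitochondrial rRNA share in 47 rats each, against a median of 30 over members. Rsad2 and Isg20 (49 rats each) and Oas1k (47) lay on the same side as Alas2, the haem synthesis enzyme of red blood cell precursors, against a median of 32. Cmpk2 and Ifit1 did so in 42 rats each and Irf7 in 37. The Pearson correlation of within-group deviations with Alas2 was 0.969 for Rsad2, 0.777 for Isg20, 0.678 for Cmpk2 and 0.645 for Irf7. It was 0.586 for Oas1k, 0.548 for Ifit1 and at most 0.37 for any other member. What joins these members to the mitochondrial share or to Alas2 was not tested.

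**Figure D2:**
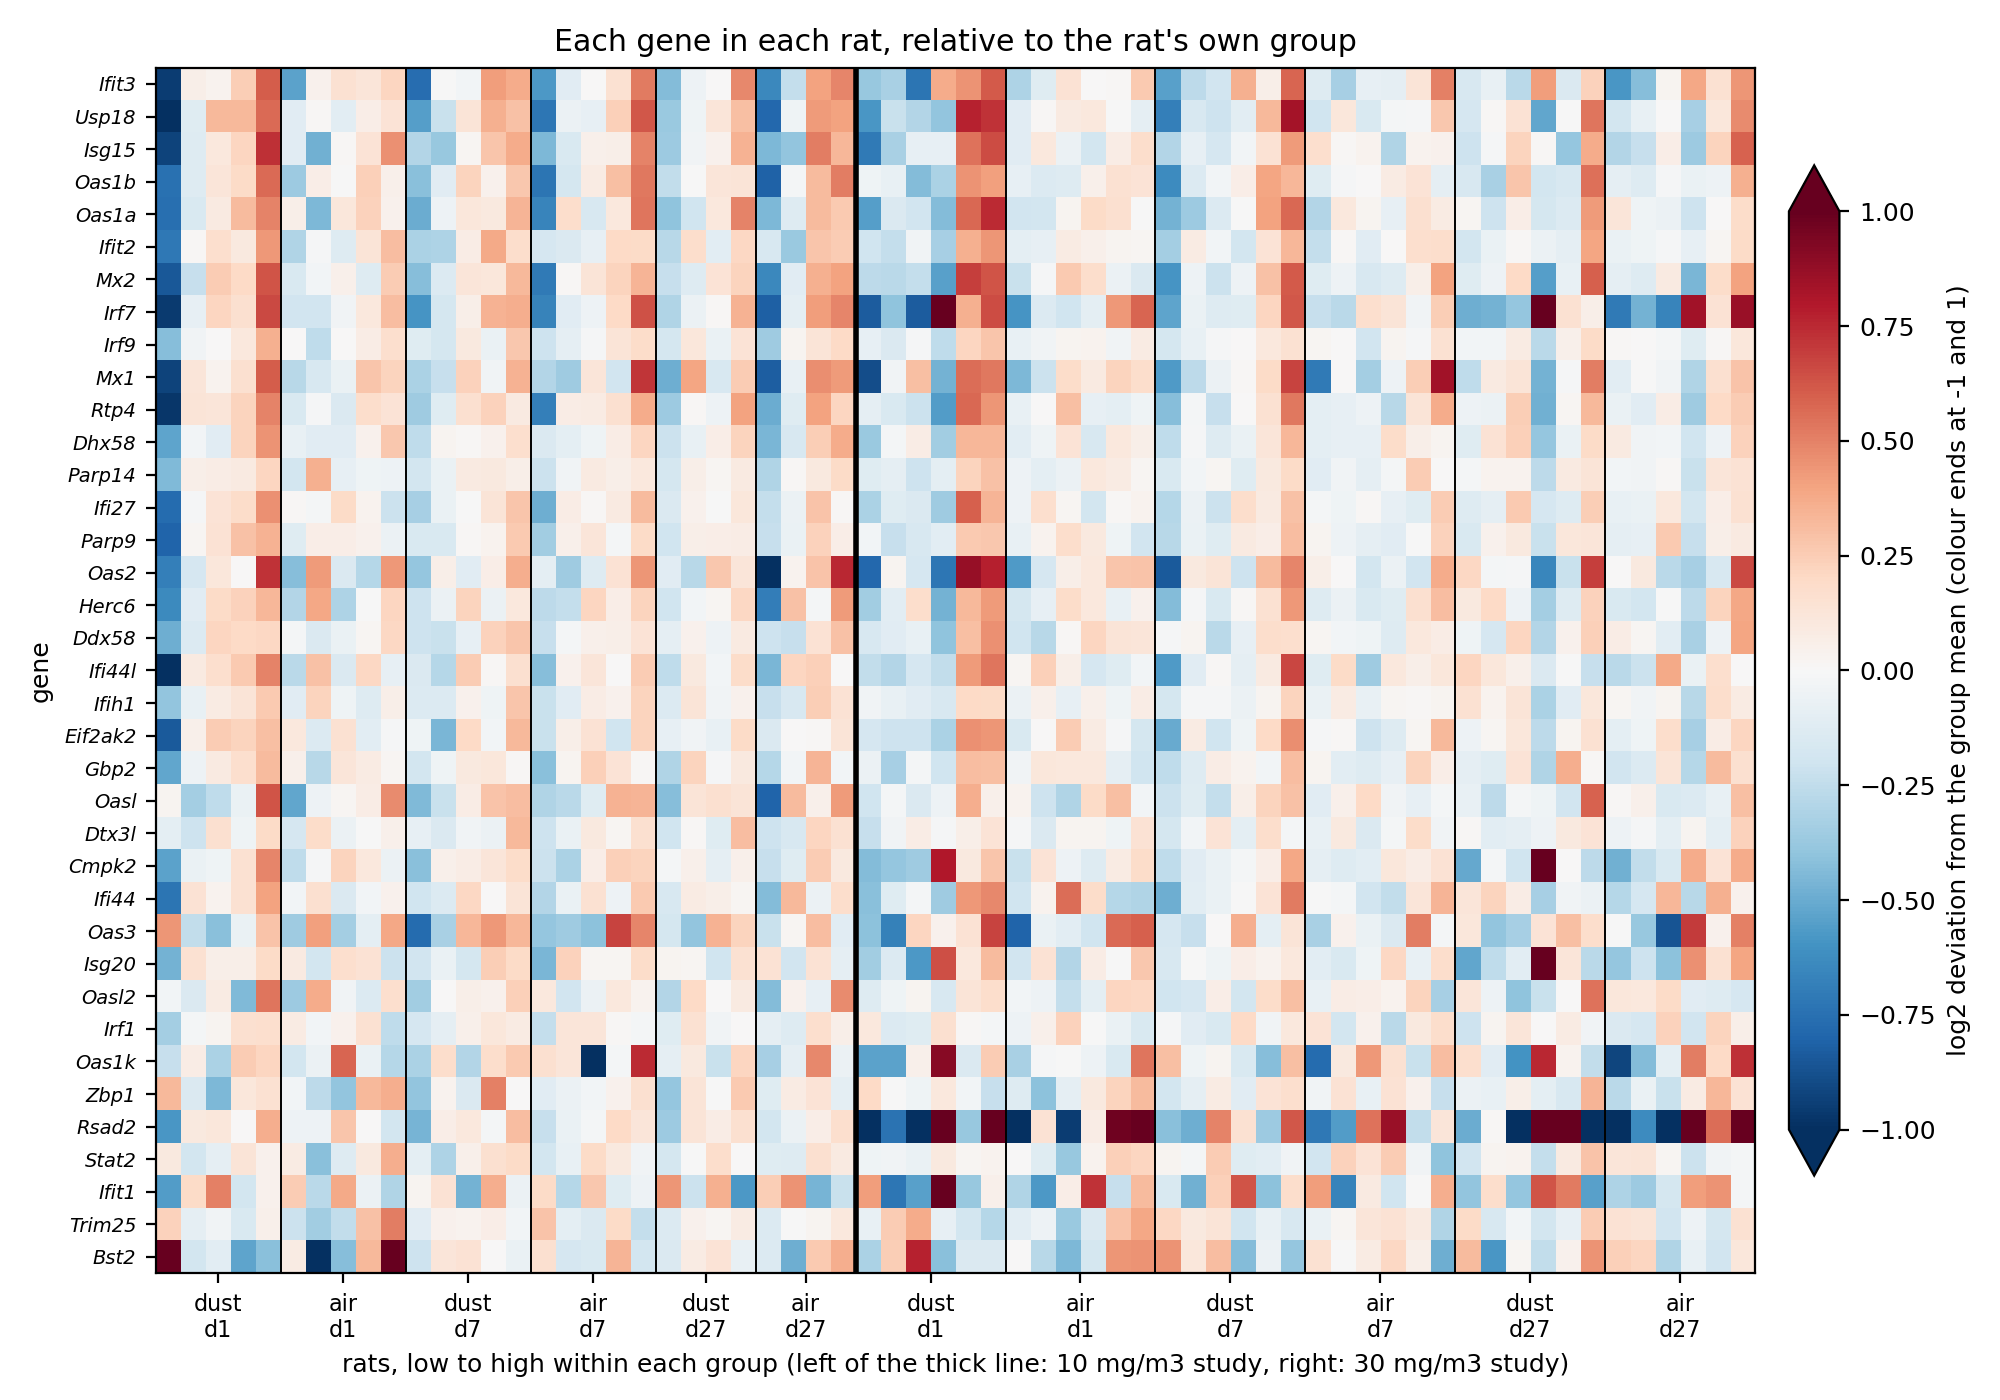
Heat map of each member's log2 CPM minus its group mean (rows, ordered by how closely a gene follows the other members) in each of the 64 rats (columns, ordered low to high within a group, dust left of air, the 10 mg/m3 study left of the thick line), with colours ending at -1 and 1. Columns of one colour are rats with most members high or most low, such as rat 30 with 36 of 37 above and rat 47 with 36 of 37 below.

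Rsad2 needs a separate account, because by this correlation it moved most closely of the members with the red cell transcript Alas2. It ran from 17.2 to 50.7 CPM at 10 mg/m3 and from 48.1 to 2299 CPM at 30 mg/m3. Alas2 ran from 14.1 to 57.4 CPM at 10 mg/m3 and from 69.5 to 7602 CPM at 30 mg/m3. The summed level of the 4 measured erythroid markers was 930.2 to 2877 CPM at 10 mg/m3 and 1259 to 17000 CPM at 30 mg/m3. At 30 mg/m3 the 13 rats with over 1000 CPM of Alas2, dust and air rats alike, had at least 311 CPM of Rsad2 and all others at most 258.9 CPM. No other member spanned so wide a range.

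**Figure D3:**
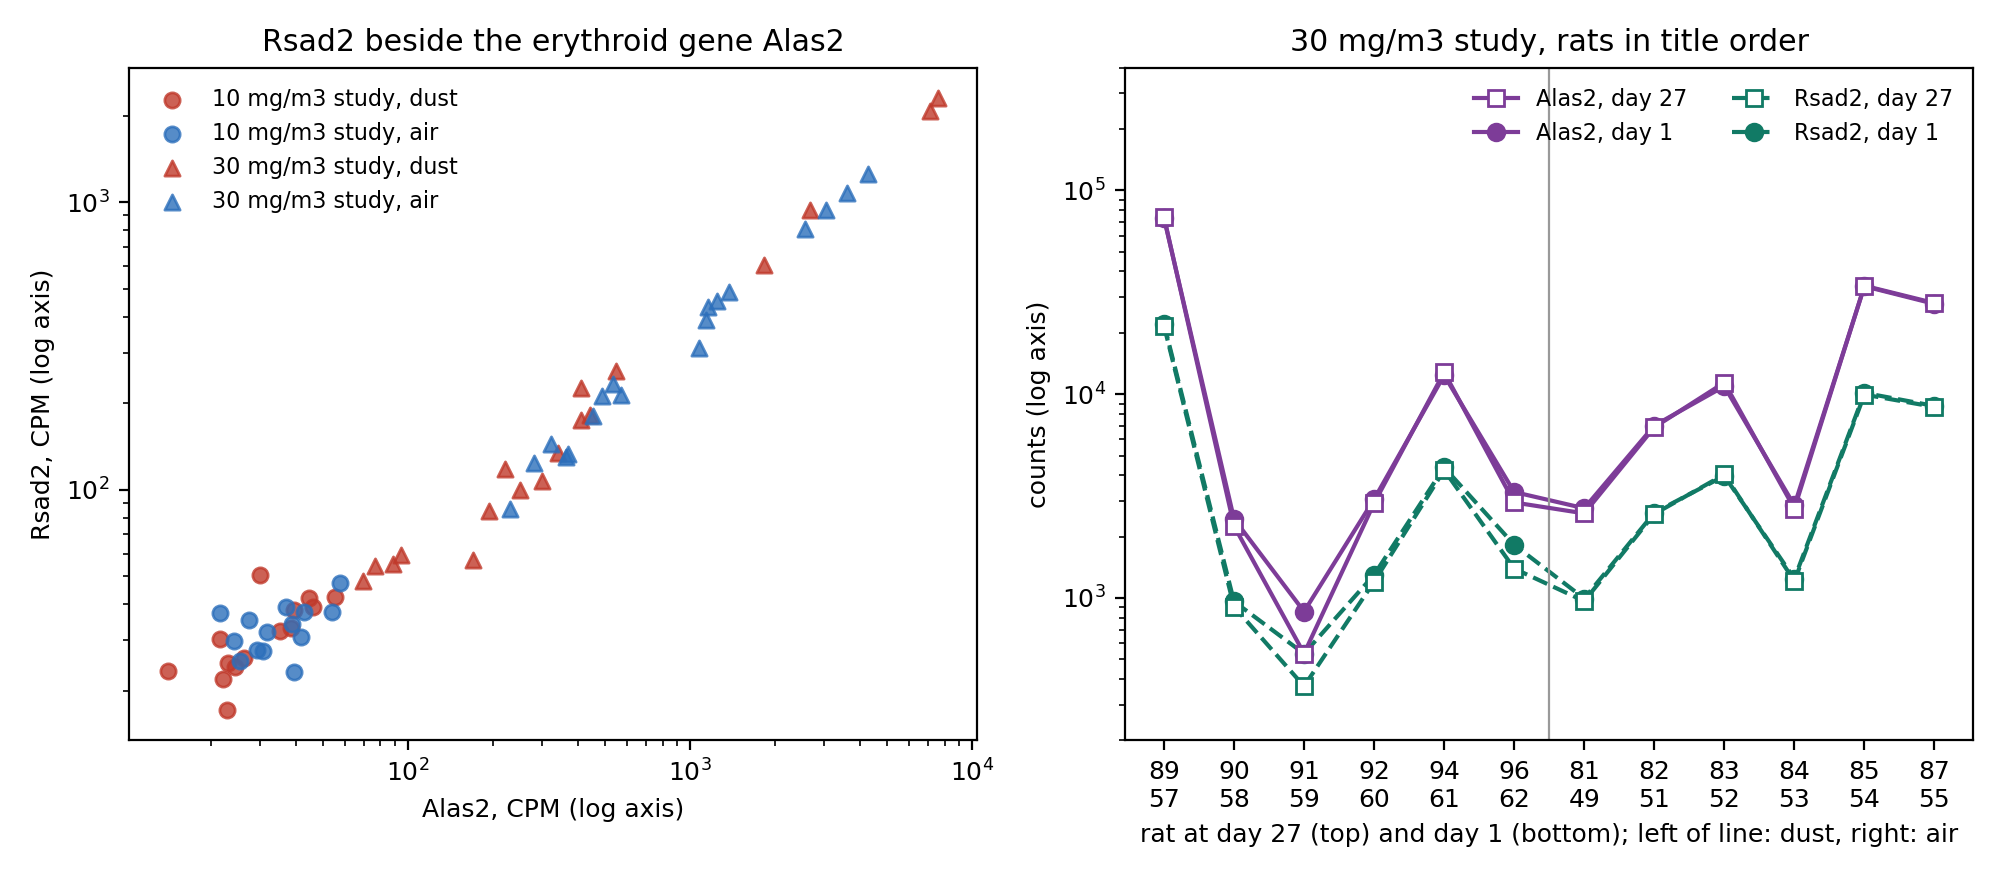
Left, Rsad2 against Alas2 in CPM (both axes log) in each of the 64 rats, by study and treatment. Right, raw counts of both genes (log axis) in the day 27 and day 1 libraries of the 30 mg/m3 study in title order, dust left of the line and air right of it. The rats of the 10 mg/m3 study sit at 14.1 to 57.4 CPM of Alas2 and 17.2 to 50.7 CPM of Rsad2, those of the 30 mg/m3 study reach 7602 and 2299 CPM, and 10 of 12 places have counts within 10% for each gene.

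The counts of these genes also went together between days. When the libraries of day 27 and day 1 of the 30 mg/m3 study were set side by side in the order of their titles, the raw Alas2 counts were within 10% of each other in 10 of 12 places, and so were the Rsad2 counts. In dust rats 89 (day 27) and 57 (day 1), Alas2 had 74114 and 73239 counts and Rsad2 21701 and 22151. In air rats 81 (day 27) and 49 (day 1), Alas2 had 2601 and 2756 counts and Rsad2 965 and 994. The same places were within 10% for Slc4a1, the anion exchanger of red cells, in 8 of 12, but for Sftpc in 1, for Mx1 and Isg15 in 2 each for Irf7 and Cmpk2 in 3 each and for Isg20 in 5, while the day 27 totals were 0.631 to 2.08 times those of day 1. The labels give no link between these rats. Whether rows or samples were mixed before deposit was not tested and cannot be told from these tables. Results on Rsad2 between days 1 and 27 rest on these counts.

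Dust was compared with air within each study and day, with edgeR's quasi-likelihood test and Benjamini-Hochberg adjustment over all genes tested. No member passed an adjusted p of 0.05 in any of the 6 comparisons, and none did with DESeq2 or limma voom. Log2 fold changes are dust over air throughout.

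**Figure D4:**
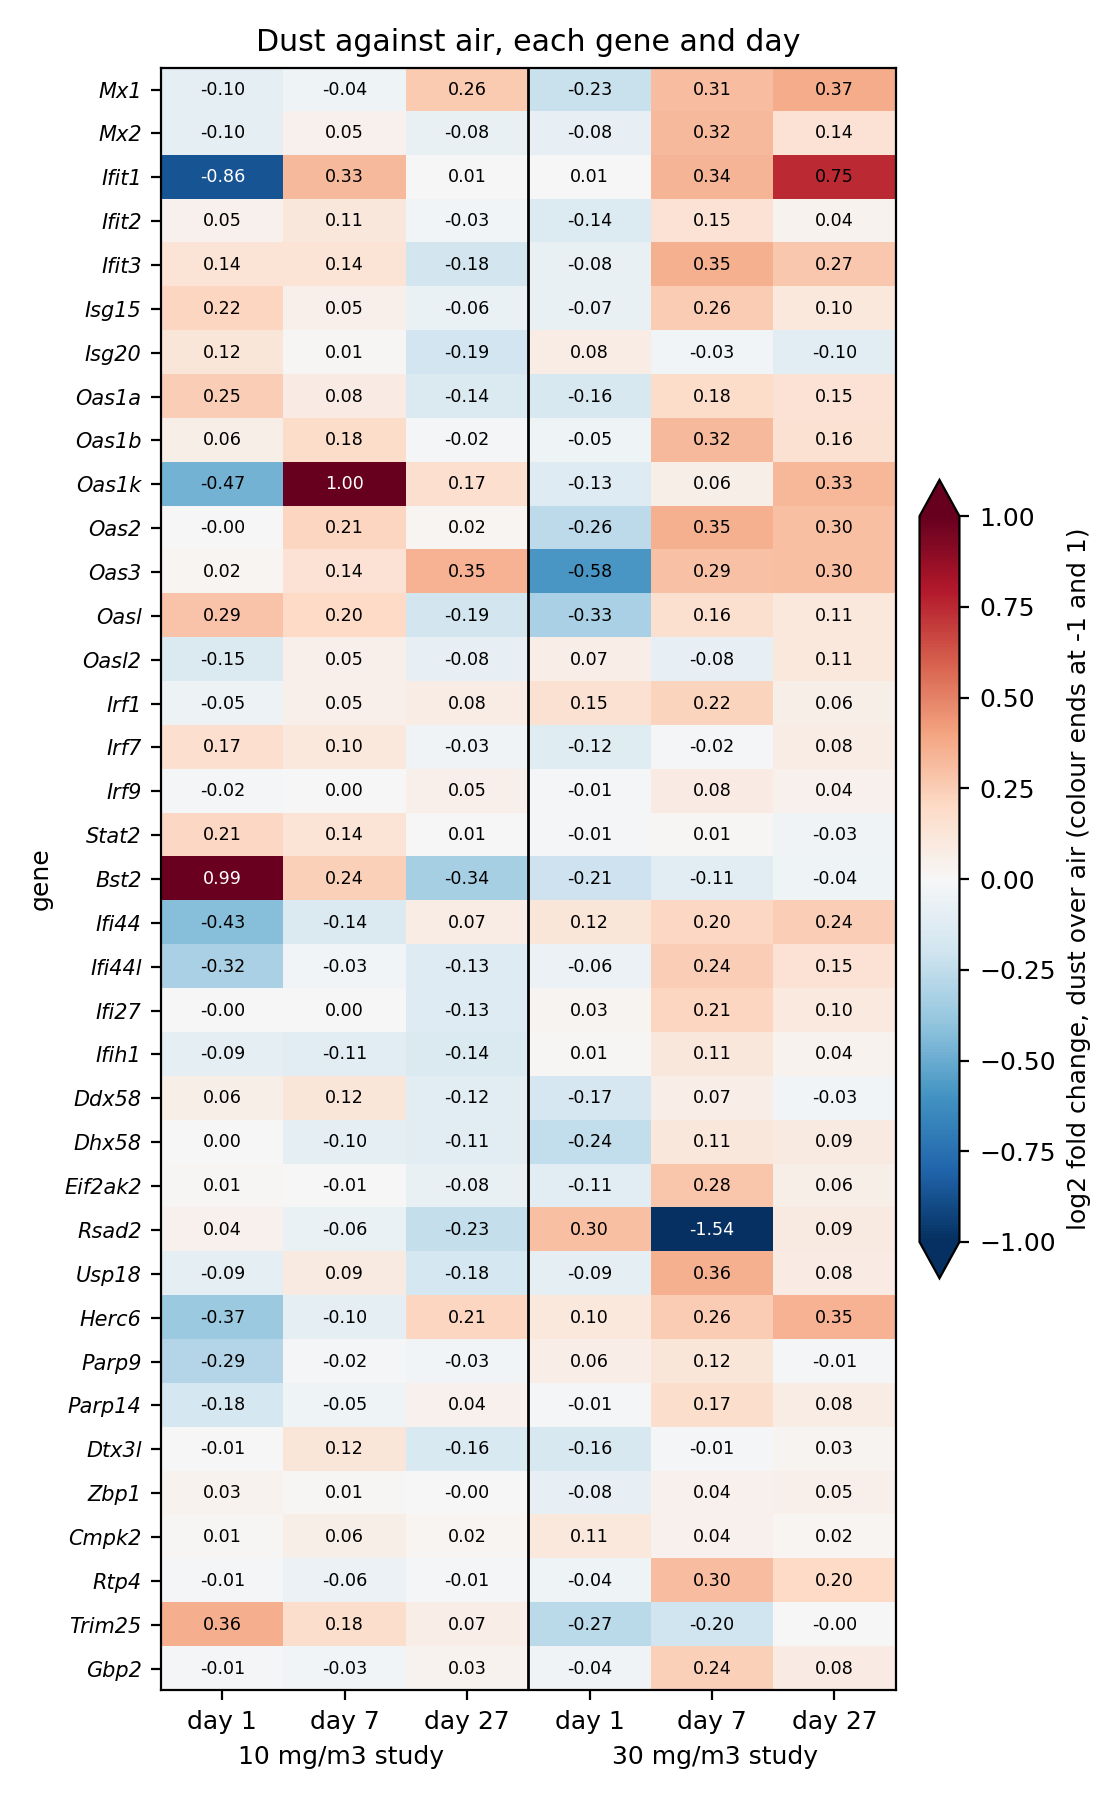
Heat map of the log2 fold change of each of the 37 members (rows), dust over air, at each day of each study (columns), with the value in each cell and colours ending at -1 and 1. The medians over members lie between -0.07 and 0.17, and the widest single values are Rsad2 at -1.54 (day 7, 30 mg/m3) and Oas1k at 1.00 (day 7, 10 mg/m3).

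At day 1 of the 10 mg/m3 study Trim25, Bst2, Ifi44 and Ifit1 differed most, in both directions, and the family as a whole lay level. Of the 37 members 0 passed, against 0.128% of all genes. At an unadjusted p of 0.05 there were 2 above and 4 below 0, against 18.9% of all genes, and 18 members lay above and 19 below 0, with a median of 0.00 beside -0.01 over all genes. Ifi44 was at 31.8, 59, 70.5, 54.3 and 58.7 CPM in the dust rats, against 82.9, 66.9, 72.8, 72.7 and 76.3 CPM in the air rats. The groups overlapped, and the log2 fold change was -0.43, SE 0.14, adjusted p = 0.127 by edgeR. Below 0 lay also Ifit1 (-0.86, SE 0.34, adjusted p = 0.168 by edgeR), Parp9 (-0.29, SE 0.14 by edgeR) and Herc6 (-0.37, SE 0.18 by edgeR). Above 0 lay Trim25 (0.36, SE 0.13, adjusted p = 0.137 by edgeR), Bst2 (0.99, SE 0.36, adjusted p = 0.147 by edgeR), Stat2 (0.21, SE 0.11 by edgeR) and Oasl (0.29, SE 0.23 by edgeR). Trim25 and Bst2 turned on 1 rat. Without air rat 21, whose mitochondrial rRNA share was 3.01% against a group median of 0.127%, Trim25 rose by 0.51 (adjusted p = 0.0101) and Bst2 by 1.52 (adjusted p = 0.0068) by edgeR. Rats 21 and 27 are the libraries of this study that stood apart, known as such from earlier results of these data. Without both, the values were 0.45 (adjusted p = 0.0237) for Trim25 and 1.07 (adjusted p = 0.0101) for Bst2 by edgeR.

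The panel followed in every rat showed wide dust groups at that day. Mx1 was at 62.4, 133, 181, 122 and 129 CPM in the dust rats, against 119, 127, 109.8, 161 and 155 CPM in the air rats (log2 fold change -0.10, SE 0.25). For Isg15 the dust rats had 18.5, 41.4, 59.2, 38.4 and 32.6 CPM and the air rats 22.9, 32.4, 29.8, 35.5 and 44.3 CPM (log2 fold change 0.22, SE 0.24). Irf7 values were 48.2, 105, 148, 109 and 88.4 CPM in the dust rats and 77.3, 86.1, 77.3, 95 and 109 CPM in the air rats (log2 fold change 0.17, SE 0.26). The dust rats enclosed the air rats on both sides for these 3 genes. Oas1a was at 9.69, 20.9, 23.7, 17.8 and 15 CPM in the dust rats, against 10.6, 15.9, 15.3, 17.3 and 15.1 CPM in the air rats (log2 fold change 0.25, SE 0.21). For Ifit2 the dust rats had 56.9, 100.1, 127, 105 and 94.4 CPM and the air rats 92, 85.1, 75.4, 102 and 115 CPM (log2 fold change 0.05, SE 0.17). Gbp2 values were 92.1, 149, 165, 141 and 128 CPM in the dust rats and 112, 148, 140.1, 144 and 137 CPM in the air rats (log2 fold change -0.01, SE 0.13). Again the dust values reached below and above the air values. Irf1 was at 107, 152, 153, 138 and 134 CPM in the dust rats, against 138, 145, 149, 156 and 118 CPM in the air rats (log2 fold change -0.05, SE 0.09). Dust rat 27, the shallowest library, was lowest of the dust rats for 28 of the 37 members, and dust rat 30 was highest for 29.

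At day 7 of the 10 mg/m3 study Oas1k stood out. It was at 6.85, 6.42, 4.5, 4.43 and 6.45 CPM in the dust rats, against 4.74, 1.06, 2.91, 2.99 and 2.58 CPM in the air rats. The groups overlapped, with every dust rat above 4 of the 5 air rats (log2 fold change 1.00, SE 0.26, adjusted p = 0.996 by edgeR). Of the 37 members 0 passed, against 0% of all genes, and only Oas1k had an unadjusted p under 0.05, against 3.96% of all genes. Above 0 lay 25 members and below it 12, with a median of 0.05 beside -0.01 over all genes. The next above 0 were Trim25 (0.18, SE 0.13 by edgeR), Stat2 (0.14, SE 0.11 by edgeR) and Dtx3l (0.12, SE 0.11 by edgeR). The lowest p below 0 belonged to Ifi44 (-0.14, SE 0.14 by edgeR), Ifih1 (-0.11, SE 0.11 by edgeR), Dhx58 (-0.10, SE 0.15 by edgeR) and Herc6 (-0.10, SE 0.18 by edgeR).

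In the panel the dust and air values of day 7 interleaved. For Mx1 the dust rats had 138, 92.2, 127, 86.6 and 105 CPM and the air rats 179, 118, 85.1, 88.6 and 95 CPM (log2 fold change -0.04, SE 0.25). Isg15 values were 39.4, 23.3, 30.9, 24.7 and 37 CPM in the dust rats and 41.4, 30.2, 26.3, 21.2 and 30.4 CPM in the air rats (log2 fold change 0.05, SE 0.24). Irf7 was at 102, 69.8, 82.2, 52.3 and 101 CPM in the dust rats, against 113, 69.98, 66.8, 45.3 and 83.1 CPM in the air rats (log2 fold change 0.10, SE 0.26). For all 3 the air rats spanned the dust rats, with air rat 33 highest. For Oas1a the dust rats had 18.2, 13.8, 15.5, 10.01 and 15.3 CPM and the air rats 19.3, 11.8, 15, 8.18 and 14.2 CPM (log2 fold change 0.08, SE 0.22). Ifit2 values were 90.9, 65, 84.6, 64.7 and 105 CPM in the dust rats and 86.2, 71.3, 68.3, 66.9 and 86.6 CPM in the air rats (log2 fold change 0.11, SE 0.17). Gbp2 was at 125, 121, 133, 109.6 and 135 CPM in the dust rats, against 127, 149, 128, 94.1 and 139 CPM in the air rats (log2 fold change -0.03, SE 0.13). Air rat 37 was lowest of the air rats for each of them. For Irf1 the dust rats had 143, 127, 140.4, 121 and 147 CPM and the air rats 129, 142, 142, 111 and 131 CPM (log2 fold change 0.05, SE 0.09). Dust rat 47 was the lowest dust rat for 28 of the 37 members, and air rat 37 the lowest air rat for 28.

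At day 27 of the 10 mg/m3 study no member stood out. Of the 37 members 0 passed, against 0% of all genes, and 0 had an unadjusted p under 0.05, against 2.36% of all genes. Above 0 lay 14 members and below it 23, with a median of -0.03 beside -0.01 over all genes. Rsad2 had the smallest p, at 24.3, 17.2, 23.4 and 24.9 CPM in the dust rats, against 23.3, 27.7, 29.8 and 25.4 CPM in the air rats. The groups overlapped (log2 fold change -0.23, SE 0.16, adjusted p = 1 by edgeR). Erythroid markers summed to 930.2 to 1354 CPM in these dust rats and 1287 to 2164 CPM in the air rats, and their part in the Rsad2 value was not tested apart from the covariate fit given in the closing section. Next below 0 came Isg20 (-0.19, SE 0.15 by edgeR), Dtx3l (-0.16, SE 0.13 by edgeR) and Ifih1 (-0.14, SE 0.13 by edgeR). Above 0 came Oas3 (0.35, SE 0.33 by edgeR), Herc6 (0.21, SE 0.20 by edgeR), Mx1 (0.26, SE 0.28 by edgeR) and Irf1 (0.08, SE 0.10 by edgeR).

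With 4 rats a group, single animals set the ranges. Mx1 values were 119.8, 65, 81.8 and 109 CPM in the dust rats and 41.6, 102, 99.7 and 70.4 CPM in the air rats (log2 fold change 0.26, SE 0.28). Isg15 was at 24.1, 19.1, 25.5 and 31.7 CPM in the dust rats, against 18.3, 36.2, 31.9 and 19.1 CPM in the air rats (log2 fold change -0.06, SE 0.27). For Irf7 the dust rats had 64.3, 54.3, 67.5 and 85.3 CPM and the air rats 37.2, 88.1, 92.2 and 61.5 CPM (log2 fold change -0.03, SE 0.29). Dust rat 14 and air rat 1 were the lowest of their groups for all 3. Oas1a values were 9.63, 8.3, 12 and 15.9 CPM in the dust rats and 8.95, 15.6, 15 and 11.3 CPM in the air rats (log2 fold change -0.14, SE 0.25). Ifit2 was at 90.5, 65.6, 74.1 and 92.3 CPM in the dust rats, against 72.5, 98.5, 96.8 and 62.4 CPM in the air rats (log2 fold change -0.03, SE 0.19). For Gbp2 the dust rats had 133, 92.6, 113 and 122 CPM and the air rats 91.9, 142, 109.8 and 109.8 CPM (log2 fold change 0.03, SE 0.14). Air rat 3 was the highest air rat for these 3. Irf1 values were 151, 125, 133 and 137 CPM in the dust rats and 121, 145, 134 and 118 CPM in the air rats (log2 fold change 0.08, SE 0.10). Over all members, dust rat 14 was the lowest dust rat for 31 of 37 and air rat 1 the lowest air rat for 30.

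At day 1 of the 30 mg/m3 study most members lay below 0, led by Oasl and Trim25. Of the 37 members 0 passed, against 0% of all genes. There were 0 above and 5 below 0 at an unadjusted p of 0.05, against 15% of all genes, and 11 members lay above and 26 below 0, with a median of -0.07 beside 0.02 over all genes. Oasl spanned 10.4 to 15.6 (median 11.7) CPM in the dust rats, against 12.1 to 18.7 (median 15.1) CPM in the air rats. The groups overlapped in their middle (log2 fold change -0.33, SE 0.13, adjusted p = 0.26 by edgeR). Trim25 (-0.27, SE 0.12 by edgeR), Oas3 (-0.58, SE 0.26 by edgeR) and Dtx3l (-0.16, SE 0.07 by edgeR) came next. On the other side were Irf1 (0.15, SE 0.09 by edgeR), Herc6 (0.10, SE 0.14 by edgeR), Ifi44 (0.12, SE 0.17 by edgeR) and Parp9 (0.06, SE 0.10 by edgeR). The mitochondrial rRNA share averaged 0.270% in these dust rats and 0.459% in the air rats, and its part in these values was not tested beyond the covariate fit.

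The dust rats were again the more spread, except in Irf1. Mx1 spanned 71.9 to 196 (median 147) CPM in the dust rats, against 119.7 to 192 (median 179.5) CPM in the air rats (log2 fold change -0.23, SE 0.23). For Isg15 the dust rats covered 23.2 to 60.4 (median 36.1) CPM and the air rats 37.1 to 47.8 (median 42.5) CPM (log2 fold change -0.07, SE 0.17). Irf7 lay at 83.3 to 311 (median 152) CPM in the dust rats and at 118 to 266 (median 163) CPM in the air rats (log2 fold change -0.12, SE 0.33). All 3 dust groups reached below and above the air rats. Oas1a spanned 14.5 to 36.4 (median 19.1) CPM in the dust rats, against 21.9 to 28.8 (median 25.3) CPM in the air rats (log2 fold change -0.16, SE 0.18). For Ifit2 the dust rats covered 76.5 to 131 (median 89.1) CPM and the air rats 102 to 115 (median 111) CPM (log2 fold change -0.14, SE 0.12). Gbp2 lay at 125 to 196 (median 154) CPM in the dust rats and at 142 to 177 (median 168) CPM in the air rats (log2 fold change -0.04, SE 0.11). The same held for these 3 genes, although the dust means lay lower. Irf1 spanned 145 to 177 (median 158) CPM in the dust rats, against 129 to 168 (median 140.4) CPM in the air rats (log2 fold change 0.15, SE 0.09). Dust rat 58 was the lowest dust rat for 12 members and dust rat 57 for 11, while dust rats 61 and 62 were highest for 14 and 12.

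At day 7 of the 30 mg/m3 study 30 of the 37 members lay above 0 and 7 below, with a median of 0.17 beside 0.00 over all genes. Without dust rat 79 the median was 0.08. Of the members 0 passed, against 0.0643% of all genes, and 4 above and 0 below 0 had an unadjusted p under 0.05, against 4.99% of all genes. Irf1 led with 135 to 172 (median 148) CPM in the dust rats, against 106 to 145 (median 134) CPM in the air rats. The groups overlapped (log2 fold change 0.22, SE 0.09, adjusted p = 0.814 by edgeR). Parp14 (0.17, SE 0.08 by edgeR), Gbp2 (0.24, SE 0.11 by edgeR) and Oas1b (0.32, SE 0.15 by edgeR) followed. Below 0 lay Rsad2, with 54.2 to 118 (median 71.9) CPM in the dust rats, against 130.0 to 390.1 (median 207) CPM in the air rats. This was the only member whose groups did not overlap, but overlap was not counted over all genes, so this has no background. Its log2 fold change was -1.54, SE 0.83, adjusted p = 0.959 by edgeR. Alas2 did the same, at 76.5 to 298 CPM in these dust rats and 321.9 to 1140 CPM in the air rats. With the erythroid level (the mean log2 CPM of Alas2 and Slc4a1) as a covariate, the Rsad2 value was -0.19. Since Alas2 did not overlap between these groups, that fit can hardly tell dust and erythroid level apart. Next below 0 by p were Trim25 (-0.20, SE 0.11 by edgeR), Oasl2 (-0.08, SE 0.12 by edgeR) and Bst2 (-0.11, SE 0.19 by edgeR). The 7 markers of cardiac muscle also differed, with sums of 79.6 to 228 CPM in the dust rats and 347 to 1125 CPM in the air rats, as did those of liver, at 7.79 to 13.4 CPM in the dust rats and 17.6 to 408.8 CPM in the air rats, and their part in these values was not tested.

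One dust rat led most of the panel at that day. For Mx1 the dust rats covered 77.6 to 184 (median 113) CPM and the air rats 55.1 to 163 (median 89.2) CPM (log2 fold change 0.31, SE 0.23). Isg15 lay at 27.6 to 45.8 (median 32.7) CPM in the dust rats and at 23 to 32.1 (median 29.2) CPM in the air rats (log2 fold change 0.26, SE 0.18). Irf7 spanned 63.1 to 141 (median 85.4) CPM in the dust rats, against 77.3 to 111 (median 96.7) CPM in the air rats (log2 fold change -0.02, SE 0.33). Dust rat 79 was highest and dust rat 73 lowest of the dust rats for these 3 genes. For Oas1a the dust rats covered 13.4 to 28.3 (median 17.9) CPM and the air rats 13.7 to 19 (median 17.6) CPM (log2 fold change 0.18, SE 0.18). Ifit2 lay at 68 to 109 (median 88) CPM in the dust rats and at 66 to 87.9 (median 78.2) CPM in the air rats (log2 fold change 0.15, SE 0.12). Gbp2 spanned 123 to 180.5 (median 146) CPM in the dust rats, against 113 to 145 (median 121) CPM in the air rats (log2 fold change 0.24, SE 0.11). The dust and air ranges overlapped for each. Over all members, dust rat 79 was the highest dust rat for 27 of 37 and dust rat 73 the lowest for 27.

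At day 27 of the 30 mg/m3 study 31 members lay above 0 and 6 below, with a median of 0.09 beside 0.00 over all genes, or 0.04 without dust rat 91. Of the members 0 passed, against 0% of all genes, and 1 above and 0 below 0 had an unadjusted p under 0.05, against 7.34% of all genes. Herc6 led, spanning 86 to 128 (median 111) CPM in the dust rats, against 71.5 to 112 (median 81.4) CPM in the air rats. The groups overlapped (log2 fold change 0.35, SE 0.14, adjusted p = 0.57 by edgeR). Ifit1 (0.75, SE 0.38 by edgeR), Mx1 (0.37, SE 0.24 by edgeR) and Ifi44 (0.24, SE 0.17 by edgeR) came next. Below 0 lay Isg20 (-0.10, SE 0.20 by edgeR), Stat2 (-0.03, SE 0.10 by edgeR), Ddx58 (-0.03, SE 0.12 by edgeR) and Bst2 (-0.04, SE 0.19 by edgeR).

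All 7 panel genes had a higher mean in dust rats than in air rats at that day, and all 7 pairs of ranges overlapped. Mx1 lay at 78.1 to 155 (median 112) CPM in the dust rats and at 69.8 to 105 (median 84.8) CPM in the air rats (log2 fold change 0.37, SE 0.24). Isg15 spanned 23.4 to 40.1 (median 30.9) CPM in the dust rats, against 22.2 to 43.5 (median 27.2) CPM in the air rats (log2 fold change 0.10, SE 0.18). For Irf7 the dust rats covered 89 to 275 (median 113) CPM and the air rats 72 to 215 (median 108) CPM (log2 fold change 0.08, SE 0.33). Air rat 87 was the highest air rat for these 3 genes. Oas1a lay at 15 to 23.7 (median 16.8) CPM in the dust rats and at 13.9 to 18.3 (median 15.8) CPM in the air rats (log2 fold change 0.15, SE 0.18). Ifit2 spanned 72.7 to 109 (median 79.4) CPM in the dust rats, against 77.2 to 93.3 (median 80.2) CPM in the air rats (log2 fold change 0.04, SE 0.12). For Gbp2 the dust rats covered 101 to 159.9 (median 121) CPM and the air rats 97.5 to 148 (median 119) CPM (log2 fold change 0.08, SE 0.11). Air rat 85 was the lowest air rat for these 3. Irf1 lay at 126 to 159 (median 148) CPM in the dust rats and at 123 to 164 (median 136) CPM in the air rats (log2 fold change 0.06, SE 0.09). Dust rat 91 was the highest dust rat for 22 of the 37 members, and dust rat 89, the highest in Rsad2 and Irf7, was the lowest dust rat for 18.

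Averaged over the 3 days, no member passed in either study. In the 10 mg/m3 study 0 of 37 passed, against 0.0319% of all genes, 19 lay above and 18 below 0, and Trim25 (0.20, SE 0.08, adjusted p = 0.45 by edgeR) was the only one with an unadjusted p under 0.05. Ifi44 was at -0.16, SE 0.09 by edgeR. In the 30 mg/m3 study 0 of 37 passed, against 1.2% of all genes, and 27 lay above and 10 below 0. Irf1 (0.14, SE 0.05, adjusted p = 0.124 by edgeR) and Herc6 (0.24, SE 0.08, adjusted p = 0.136 by edgeR) lay above 0, and Trim25 (-0.16, SE 0.07 by edgeR) below it. Without air rat 53 Irf1 passed (0.16, adjusted p = 0.0489 by edgeR), and it did without air rats 51 and 53 (0.17, adjusted p = 0.038 by edgeR). A test of whether the dust effect depended on the day gave 0 members in both studies, against 0% of all genes in each. At an unadjusted p under 0.05 there was 1 member at 10 mg/m3, Oas1k (adjusted p = 0.655 by edgeR), and there were 2 at 30 mg/m3, Oasl (adjusted p = 0.973) and Oas3 (adjusted p = 0.981), by edgeR. Ifit1 came next at 10 mg/m3. DESeq2 and limma voom also gave 0 members for the mean effects, and limma voom for the dependence on day.

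Most calls in the family came between days. These comparisons are of different animals that were also of different ages, and values are the later over the earlier day. In air rats of the 30 mg/m3 study 17 members were lower and 1 was higher at day 27 than at day 1, against 12.9% of all genes in either direction and 7.36% lower. Of the 37 members 34 lay below 0, with a median of -0.39 beside 0.00 over all genes. The lower members with the largest changes were Mx1 (-0.95, SE 0.24, adjusted p = 0.0103 by edgeR), Oas2 (-0.85, SE 0.26, adjusted p = 0.0266 by edgeR), Mx2 (-0.72, SE 0.21, adjusted p = 0.0205 by edgeR), Ifit3 (-0.69, SE 0.21, adjusted p = 0.0286 by edgeR), Rtp4 (-0.67, SE 0.16, adjusted p = 0.00824 by edgeR) and Usp18 (-0.66, SE 0.22, adjusted p = 0.0417 by edgeR). Oasl had the smallest p (-0.60, SE 0.13, adjusted p = 0.00361 by edgeR). Bst2 was the member that rose (0.63, SE 0.19, adjusted p = 0.0292 by edgeR).

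The ranges of Mx1, Oas2, Oasl and Bst2, all of them members that passed, show these changes in the air rats. Of the fixed panel only Mx1 is among them, and the other panel genes have their ranges for both days given above. Mx1 was at 69.8 to 105 (median 84.8) CPM at day 27, against 119.7 to 192 (median 179.5) CPM at day 1. Oas2 spanned 12.2 to 24.8 (median 14.7) CPM at day 27 and 18.8 to 34.4 (median 29.8) CPM at day 1. For Mx1 every day 27 rat lay below every day 1 rat, while the ranges of Oas2 overlapped. Oasl had 9.005 to 12.5 (median 9.81) CPM at day 27 and 12.1 to 18.7 (median 15.1) CPM at day 1. For Bst2 the day 27 rats had 42.4 to 61.7 (median 53.1) CPM and the day 1 rats 24.1 to 45.1 (median 31.2) CPM. The count depended on the libraries that stood apart. Without air rats 51 and 53 it was 6 members in place of 18, without air rat 53 alone 10 (10 to 19 over all rats left out in turn), with the mitochondrial rRNA share as a covariate 1, and with rats over 1000 CPM of Alas2 left out 0. That share averaged 1.14% at day 27 and 0.459% at day 1 in these rats, and the limit on Alas2 left 3 air rats of 6 at day 27 and 2 of 6 at day 1.

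**Figure D5:**
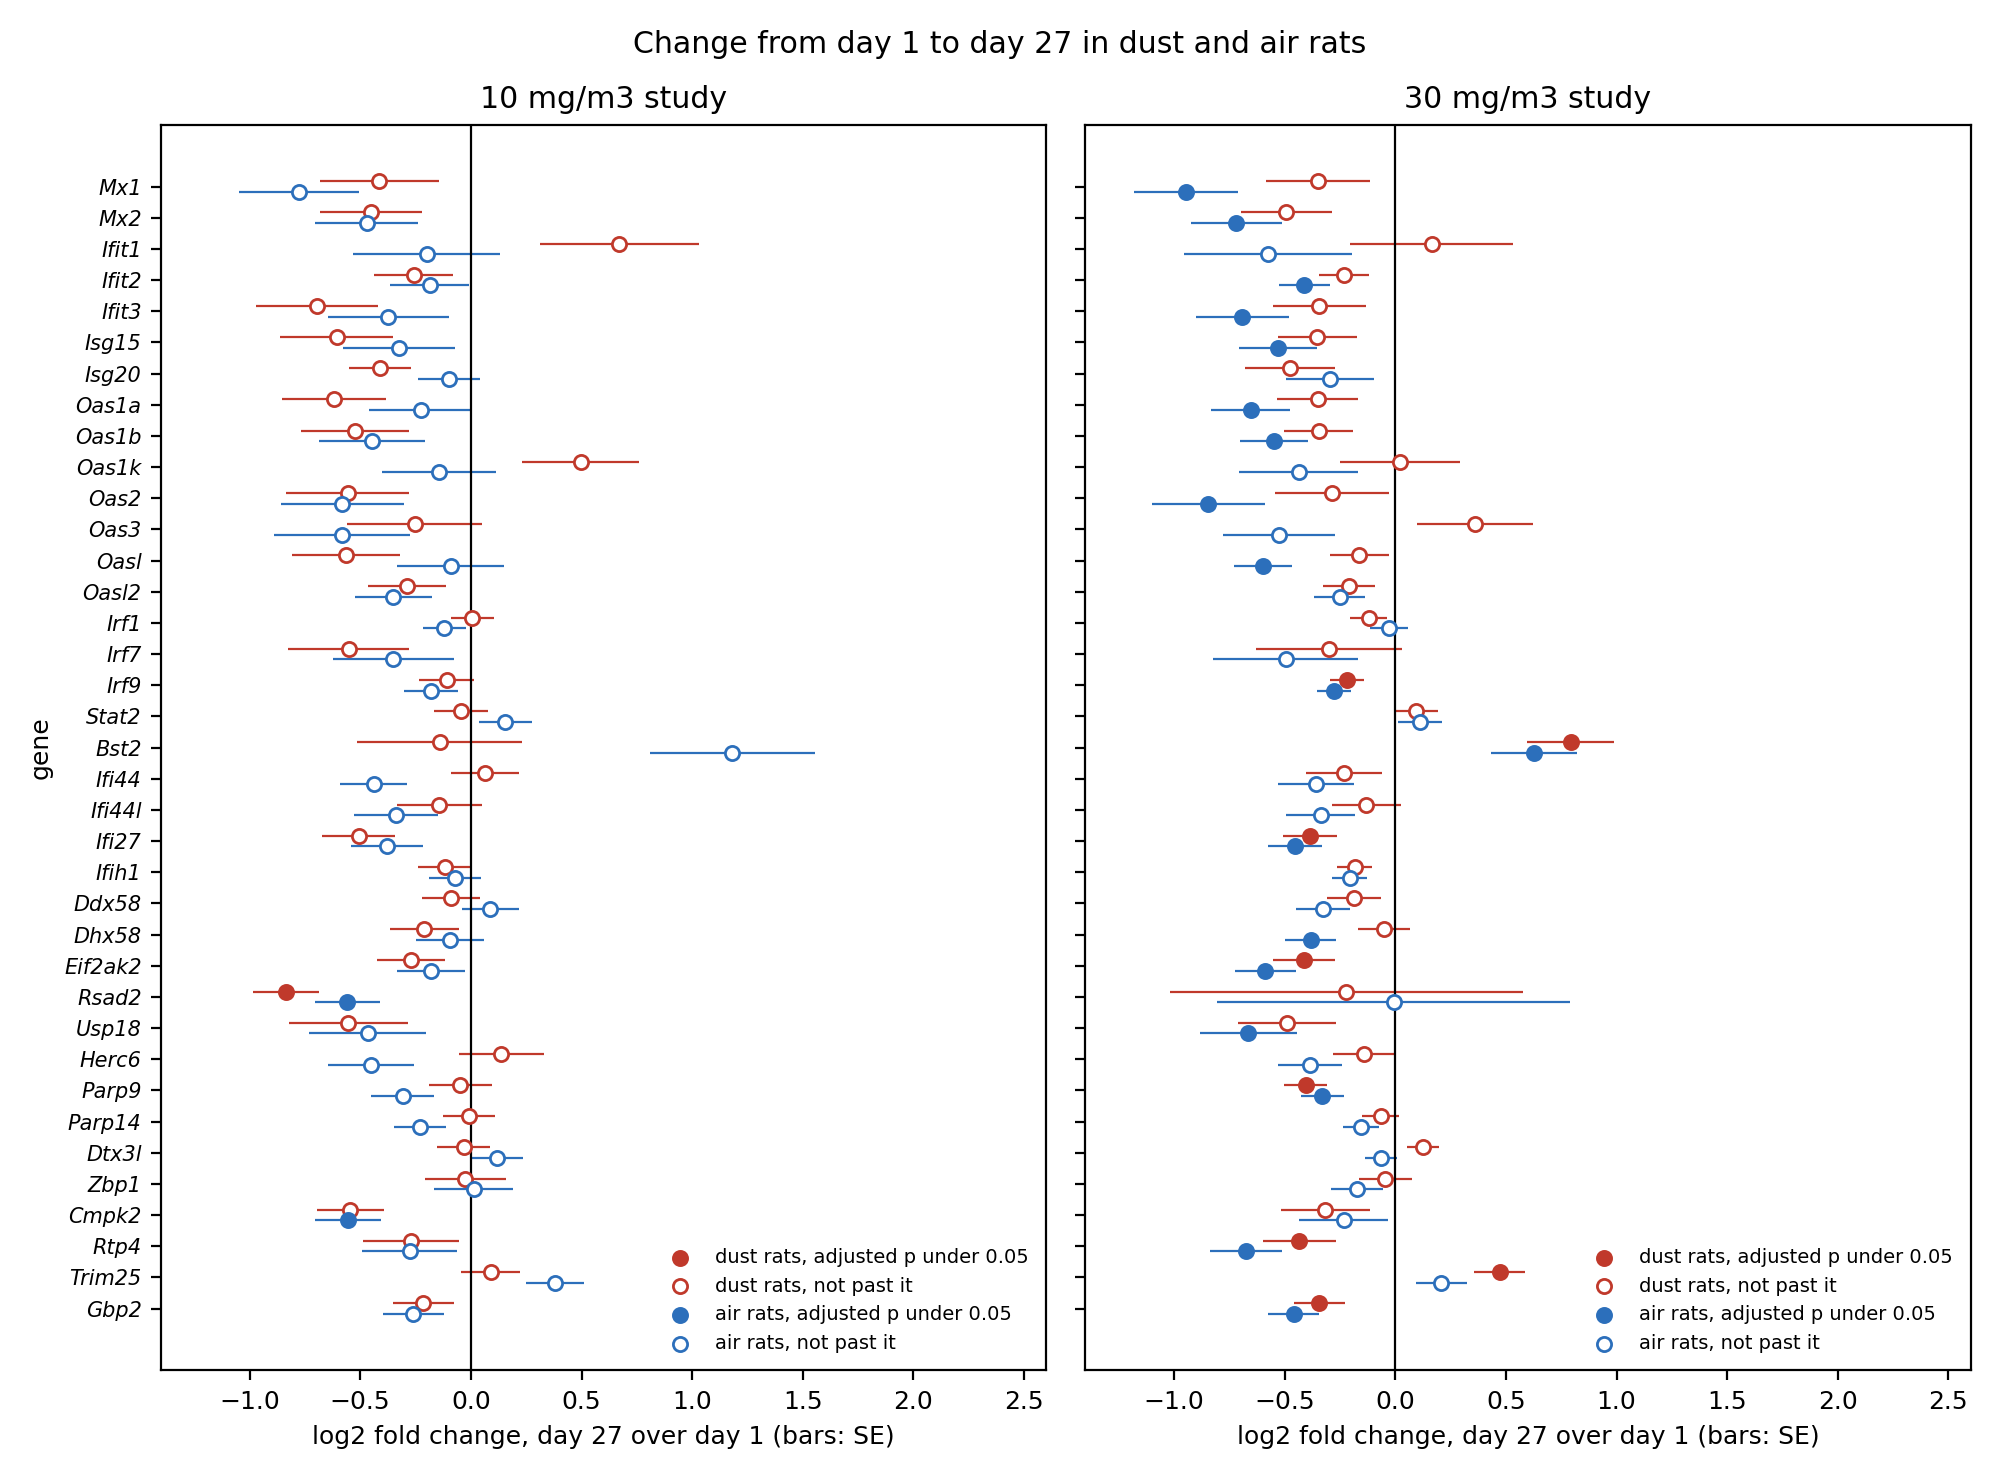
Log2 fold change of each member, day 27 over day 1, in dust and in air rats of each study, with SE bars; filled points have an adjusted p under 0.05 by edgeR. In air rats of the 30 mg/m3 study 17 filled points lie below 0 and 1 above, in dust rats 6 below and 2 above.

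Dust rats of the 30 mg/m3 study showed fewer such changes relative to all genes. From day 1 to day 27, 2 members were higher and 6 lower at day 27, against 34.3% of all genes in either direction and 17.3% lower. The members' share in either direction thus lay below the background, and that of the lower ones near it. Without dust rat 61 or 62 there were 3 calls, and without dust rat 91 there were 13. The higher ones were Bst2 (0.79, SE 0.20, adjusted p = 0.00281 by edgeR) and Trim25 (0.47, SE 0.12, adjusted p = 0.00243 by edgeR). Lower were Rtp4 (-0.43, SE 0.16, adjusted p = 0.0397 by edgeR), Eif2ak2 (-0.41, SE 0.14, adjusted p = 0.0212 by edgeR), Parp9 (-0.40, SE 0.10, adjusted p = 0.00221 by edgeR), Ifi27 (-0.39, SE 0.12, adjusted p = 0.015 by edgeR), Gbp2 (-0.34, SE 0.12, adjusted p = 0.0199 by edgeR) and Irf9 (-0.22, SE 0.08, adjusted p = 0.0295 by edgeR). The median of the 37 members was -0.22 beside -0.01 over all genes. The mitochondrial share averaged 1.00% at day 27 and 0.270% at day 1, and with it as a covariate 0 members passed. The dust and air rats were not shown to differ in this change, since the test of the dependence on day gave no member.

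Shorter steps at 30 mg/m3 gave few calls. In air rats from day 1 to day 7, 0 members passed, against 0.116% of all genes, but 24 were lower and 1 higher at an unadjusted p of 0.05, against 12% of all genes, and the median was -0.38. DESeq2 gave 4 members there and limma voom 1. Oasl was closest (-0.58, SE 0.13, adjusted p = 0.0516 by edgeR). In air rats from day 7 to day 27, 0 passed by edgeR, DESeq2 and limma voom, against 1.32% of all genes, with 1 member, Ifi27 (-0.26, SE 0.12 by edgeR), at an unadjusted p under 0.05, and Stat2 next (0.19, SE 0.10 by edgeR). In dust rats from day 1 to day 7, 0 passed by edgeR and limma voom and 1 by DESeq2, against 0% of all genes, with 6 members at an unadjusted p under 0.05, led by Rsad2 (-3.00, SE 0.87, adjusted p = 0.248 by edgeR) and Oasl2 (-0.39, SE 0.12, adjusted p = 0.248 by edgeR). In dust rats from day 7 to day 27, 1 member was higher and 1 lower, against 11.3% of all genes. Rsad2 spanned 48 to 2079 (median 220.5) CPM at day 27 and 54.2 to 118 (median 71.9) CPM at day 7 (2.78, SE 0.86, adjusted p = 0.0371 by edgeR), with Alas2 at 69.5 to 7099 CPM and 76.5 to 298 CPM in the same rats. With the erythroid level as a covariate, or with the limit on Alas2, no member passed in that step, and 0 passed without dust rat 74, 76, 77 or 79 of day 7 or 89, 92 or 94 of day 27, and 1 without rat 96. Ifi27 was the lower one (-0.37, SE 0.12, adjusted p = 0.045 by edgeR).

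In the 10 mg/m3 study at most 3 members passed in a step. In air rats from day 1 to day 7, 0 members passed by edgeR, DESeq2 and limma voom, against 5.9% of all genes, with 3 at an unadjusted p under 0.05. Oas1k (-0.69, SE 0.26, adjusted p = 0.105 by edgeR) and Ifi27 (-0.35, SE 0.15, adjusted p = 0.164 by edgeR) had the smallest p there. In air rats from day 7 to day 27, 2 fell, against 4.03% of all genes, Herc6 (-0.74, SE 0.19, adjusted p = 0.0363 by edgeR) and Ifi44 (-0.60, SE 0.15, adjusted p = 0.0324 by edgeR). Herc6 was at 52, 83.3, 113 and 104 CPM at day 27 and 168, 168, 123, 120.2 and 151 CPM at day 7. Ifi44 was at 39.6, 51.4, 60.6 and 67.2 CPM at day 27 and 97.7, 90.6, 78, 66.4 and 78.7 CPM at day 7. Both calls were lost without air rat 1, 3, 33, 34 or 36. Over the whole span in air rats 2 fell, against 2.97% of all genes, the neighbours Rsad2 (-0.56, SE 0.15, adjusted p = 0.039 by edgeR) and Cmpk2 (-0.56, SE 0.15, adjusted p = 0.0442 by edgeR). Erythroid markers averaged 1585 CPM at day 27 and 2323 CPM at day 1 in these air rats, and with the erythroid level as a covariate 0 members passed. There were 4 calls without air rat 21 and none without air rat 1, 3, 5 or 6 of day 27 or 17, 18, 19 or 20 of day 1.

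In dust rats of the 10 mg/m3 study 3 members rose between day 1 and day 7, against 11.8% of all genes. They were Oas1k (0.78, SE 0.25, adjusted p = 0.0406 by edgeR), Herc6 (0.56, SE 0.18, adjusted p = 0.0419 by edgeR) and Ifi44 (0.45, SE 0.14, adjusted p = 0.0402 by edgeR). None was called without dust rat 29, 31, 43, 44 or 48, and 1 without dust rat 32 or 45. From day 7 to day 27, 0 passed by edgeR, DESeq2 and limma voom, against 0.00638% of all genes, with 5 at an unadjusted p under 0.05 and 33 of 37 below 0. Rsad2 (-0.48, SE 0.15, adjusted p = 0.994 by edgeR) and Ifi44 (-0.39, SE 0.15, adjusted p = 0.994 by edgeR) led it. Over the whole span 1 member fell, Rsad2 (-0.84, SE 0.15, adjusted p = 0.00914 by edgeR), against 2.34% of all genes. It was at 24.3, 17.2, 23.4 and 24.9 CPM at day 27 and 26.1, 39.2, 50.7, 42.5 and 42 CPM at day 1, with every day 27 rat below every day 1 rat. Alas2 lay at 14.1 to 24.4 CPM at day 27 and 26.4 to 55.3 CPM at day 1 in the same rats. With the erythroid level as a covariate 0 members passed, but Alas2 did not overlap, so that fit can hardly tell day and erythroid level apart. Without dust rat 14 there was no call, and without dust rat 27 there were 6.

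The doses were compared as the difference of the dust effects, 30 minus 10 mg/m3, in a fit of all 64 libraries. At day 1, 2 members had a lower dust effect at 30 mg/m3, against 10.4% of all genes, Bst2 (-1.19, SE 0.40, adjusted p = 0.0451 by edgeR) and Trim25 (-0.61, SE 0.18, adjusted p = 0.0221 by edgeR). Bst2 spanned 21 to 48.3 (median 25.4) CPM in dust rats and 24.1 to 45.1 (median 31.2) CPM in air rats at 30 mg/m3. At 10 mg/m3 it was at 182, 53.2, 57.5, 71.7 and 67.7 CPM in dust rats and 12.4, 25.4, 36.3, 43.1 and 93.8 CPM in air rats. One air rat of the 10 mg/m3 study, rat 21, was far above the other 4. Trim25 spanned 40.01 to 63.5 (median 46.3) CPM in dust rats and 45.5 to 77.3 (median 55.9) CPM in air rats at 30 mg/m3. At 10 mg/m3 it was at 87.2, 67, 77.2, 72.5 and 70.1 CPM in dust rats and 44.1, 47.1, 48.3, 69 and 80.3 CPM in air rats. With the mitochondrial rRNA share as a covariate the differences were -0.51 for Bst2 (adjusted p = 0.435) and -0.30 for Trim25 (adjusted p = 0.315) by edgeR, and with the limit on Alas2 -0.79 (adjusted p = 0.639) and -0.27 (adjusted p = 0.681). Without all 4 libraries that stood apart they were -1.45 for Bst2 (adjusted p = 0.00147), -0.86 for Trim25 (adjusted p = 0.000546) and -0.80 for Oasl (adjusted p = 0.0336) by edgeR. Leaving out day 1 rats in turn, an alternative added after seeing the data, gave 0 to 3 members. It gave 3 without air rat 21 at 10 mg/m3, with Oasl beside Bst2 and Trim25, and 3 without air rat 53 at 30 mg/m3, with Ifi44, whose dust effect was higher at 30 mg/m3 (0.67, adjusted p = 0.0326 by edgeR). It gave 1 without rat 18, 19, 20 or 27 at 10 mg/m3 or rat 49, 55, 57, 58, 61 or 62 at 30 mg/m3, and 0 without air rat 17 at 10 mg/m3 or air rat 54 at 30 mg/m3.

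At days 7 and 27 0 members differed between doses by edgeR, DESeq2 and limma voom, against 0% of all genes on each day. At day 7, 2 had an unadjusted p under 0.05, Oas1k (-0.93, SE 0.39 by edgeR) and Trim25 (-0.37, SE 0.17 by edgeR). At day 27 there were 0, with Ifit1 (0.72, SE 0.55 by edgeR) and Dtx3l (0.17, SE 0.14 by edgeR) closest. Averaged over the days 1 member differed, Trim25 (-0.36, SE 0.10, adjusted p = 0.0487 by edgeR), against 2.09% of all genes, and with the mitochondrial covariate its value was -0.14 (adjusted p = 0.617 by edgeR). That call was lost without 12 of the 22 day 1 rats left out in turn (17, 18, 19, 27, 30, 31, 49, 54, 55, 58, 61 and 62), and without all libraries that stood apart there were 2, Trim25 and Ifi44.

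The air rats of the studies differed in 9 members, against 29.8% of all genes, so the share was below the background. Higher at 30 mg/m3 were Rsad2 (3.60, SE 0.45, adjusted p = 9.39e-09 by edgeR), Irf7 (0.75, SE 0.19, adjusted p = 0.00173 by edgeR), Oas1k (0.62, SE 0.16, adjusted p = 0.00237 by edgeR), Isg20 (0.56, SE 0.11, adjusted p = 5.36e-05 by edgeR), Oas1a (0.46, SE 0.12, adjusted p = 0.00293 by edgeR), Cmpk2 (0.42, SE 0.11, adjusted p = 0.00293 by edgeR) and Stat2 (0.16, SE 0.06, adjusted p = 0.0439 by edgeR). Lower were Bst2 (-0.62, SE 0.16, adjusted p = 0.0021 by edgeR) and Herc6 (-0.26, SE 0.10, adjusted p = 0.035 by edgeR). Without the libraries that stood apart 10 members differed, with Ifi44 (-0.27, adjusted p = 0.0176 by edgeR) added to these 9. Erythroid transcripts differed between the same rats. With the erythroid level as a covariate 1 member differed, Ifit1, which was lower at 30 mg/m3. Alas2, part of that level, was at 14.1 to 57.4 CPM at 10 mg/m3 and 69.5 to 7602 CPM at 30 mg/m3. With no overlap between the studies, that fit can hardly tell study and erythroid level apart. With the limit on Alas2 there were 5, Bst2, Cmpk2, Isg20, Oas1a and Rsad2.

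The rest of the pathway was read from further lists. Of 14 ligand genes 13 were in the tables and only Il15, a cytokine that supports natural killer cells, passed the filter. Interferon transcripts were at the limit of these libraries: Ifnb1 had counts in 3 of 64 with at most 2 in one, Ifna1 in 1, Ifna2, Ifna11 and Ifnl3 in 0, and Ifng in 42 with at most 4. A difference in them was not detectable at this depth. Il15 rose in the mean over days at 30 mg/m3 (0.32, SE 0.08, adjusted p = 0.0437 by edgeR), where 1.2% of all genes passed. At 10 mg/m3 Il15 was at -0.24, SE 0.10, adjusted p = 0.485 by edgeR.

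None of the 16 receptor and JAK-STAT genes passed in the 6 dust and air comparisons, and in the mean over days at 30 mg/m3 only Irf3, the factor that starts interferon production, did (0.22, SE 0.05, adjusted p = 0.0303 by edgeR). None of the 15 tested genes of nucleic acid sensing passed, with Ikbke, a kinase of that pathway, closest at day 27 of the 30 mg/m3 study (0.39, SE 0.10, adjusted p = 0.302 by edgeR). Of the 12 feedback inhibitors Nlrx1, a mitochondrial brake on RIG-I signalling, passed in the mean at 30 mg/m3 (-0.22, SE 0.06, adjusted p = 0.048 by edgeR). In that mean 1.2% of all genes passed. The calls of Il15, Irf3 and Nlrx1 lie near the threshold and were not followed under the alternative settings.

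A list of 49 further type I targets, 42 of them tested, gave 0 calls in the 6 dust and air comparisons. At 30 mg/m3 it had 17 genes above and 25 below 0 on day 1, 36 above and 6 below on day 7 (median 0.10), and 33 above and 9 below on day 27 (median 0.06). At 10 mg/m3 day 1 had 14 above and 28 below, day 7 had 20 above and 22 below, and day 27 had 21 on either side. In air rats of the 30 mg/m3 study 12 of them were lower at day 27 than at day 1 and 0 higher, with Lgals9 (-0.62, SE 0.11, adjusted p = 0.000424 by edgeR), Ube2l6 (-0.59, SE 0.14, adjusted p = 0.00613 by edgeR) and Trim21 (-0.32, SE 0.08, adjusted p = 0.00872 by edgeR) at the smallest p. These 12 of 42 stand against 7.36% of all genes lower. Dust rats had 13 lower and 5 higher in the same span, against 17.3% of all genes lower and 34.3% called in either direction. The 25 tested targets of interferon gamma gave 0 calls in the dust and air comparisons. Between day 27 and day 1 at 30 mg/m3 they had 3 calls higher and 6 lower in dust rats, and in air rats 7 lay above and 18 below 0 (median -0.19). In the same span the dust rats had 5 of 16 receptor and JAK-STAT genes higher and 1 lower. They had 3 of 15 sensing genes higher and 1 lower, and 4 of 12 feedback inhibitors higher and 1 lower. The air rats had 0 higher in these 3 lists, with 2 receptor and JAK-STAT genes, 3 sensing genes and 1 feedback inhibitor lower. Of all 15551 genes, 2638 were higher and 2695 lower in the dust rats, and 863 higher and 1144 lower in the air rats. The lists were not tested against this background.

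Genes outside the pathway passed in 2 of the 6 dust and air comparisons, day 1 at 10 mg/m3 with 20 genes and day 7 at 30 mg/m3 with 10. At day 1 of the 10 mg/m3 study 4 of 16 clock genes rose and 1 fell, among them Dbp (2.41, SE 0.45, adjusted p = 0.0388 by edgeR) and Arntl (-0.92, SE 0.14, adjusted p = 0.00363 by edgeR), while all 12 immediate early genes lay above 0 with 0 calls. Clock and immediate early genes move with the hour and handling of the kill, which the labels do not give, and their part in the members' values was not tested. Sums of immune cell markers overlapped between dust and air rats in every comparison but one. Those of monocytes and dendritic cells were, on day 1 at 10 mg/m3, 1858 to 1981 CPM in dust rats and 1332 to 1835 CPM in air rats, and their part in the members' values was not tested. Neutrophil markers, all 5 measured, summed to 82.5 to 352 CPM in dust rats and 136 to 219.8 CPM in air rats at day 1 of the 30 mg/m3 study. Markers of plasmacytoid dendritic cells, the main interferon producers, 6 genes of which Bst2 is one, summed to 164 to 216.5 CPM in dust rats and 166 to 239 CPM in air rats on that day. Of the alveolar macrophage markers, Marco was at 0 in 46 of 64 libraries. The others had counts in every library, with Mrc1 at 150.2 to 360.5 CPM and Cd68 at 20.2 to 52.4 CPM. Siglec1 was at 6.05 to 27.3 CPM and Fabp4 at 2.17 to 13.5 CPM.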

How the data were processed

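Lung RNA of 64 rats was sequenced by the submitters from stranded, rRNA-depleted total RNA, per the labels' protocols. The deposited values are whole-number read counts per gene symbol, in 1 table per study, and the submitters' processing notes name HISAT2 2.1.0 and HTSeq 0.6.1 on build Rnor_6.0, beside Trimmomatic 0.35, SAMtools 1.8 and bcl2fastq 2.19. The annotation is not given in the sources used here. All columns were assigned to a rat by title.

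The test was edgeR 4.0.16 in R 4.3.3 (TMM factors, filterByExpr with a minimum count of 10 and a minimum total of 15, robust quasi-likelihood F test), over 15668 genes at 10 mg/m3, 15551 at 30 mg/m3 and 16190 in the fit of both, with Benjamini-Hochberg adjustment and a threshold of 0.05. The 6 groups of a study entered one fit. The SE of a log2 fold change is its size divided by the square root of F. The mean over members used log2 (CPM + 0.5). Pairs of libraries within groups differed by at least 2.07 in chi-square per degree of freedom over 142 pairs. None was thus an exact copy of another in its own group. Libraries of different groups were not compared in this way, and partly shared material was not tested. The procedure was tested on simulated data. Alternatives were DESeq2 1.42.0, limma 3.58.1 voom, RLE factors, no filter, the compared groups alone, each rat left out and the 4 libraries that stand apart left out. In the fit of a single study only those of that study were left out. Added after seeing the data were covariates for mitochondrial rRNA and erythroid level, a limit of 1000 CPM of Alas2, which left out 13 rats, and these settings for the comparisons over time and between doses. The erythroid level was the mean log2 (CPM + 0.5) of Alas2 and Slc4a1.

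The members, lists and named genes were chosen with earlier results of these data known. Named in each comparison are members past the threshold, or the 4 with the smallest p above and below 0 for dust and air and the 2 with the smallest p elsewhere, with a fixed panel of 7 genes and the member with the smallest p given in every rat. Promoters and neighbours come from RefSeq tables of build GRCr8, used for nothing else since the counts are on another build.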

Additional observations from a re-analysis of the deposited data

Results flagged for a closer look

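Each group of 4 to 6 rats was examined for 12 genes (the leading members and the panel) and for the mean over members, 156 sets of values in all. Of these sets 10 held a rat whose gap to its neighbour exceeded Dixon's 95% limit, and chance gives about 1 in 20 for independent sets. The sets share rats and members that move together, so that share is only a rough guide. In dust rats of day 27 at 30 mg/m3, rat 89 had 2079 CPM of Rsad2 with the next rat at 606 CPM, and 275.0 CPM of Irf7 with the next at 139.7 CPM. Rat 89 also had the highest Alas2 of its group, at 7099 CPM, and the part of Alas2 in these values was not tested. The same group held rat 91, which had 16.2 CPM of Oasl with the next at 10.4 CPM, and 108.9 CPM of Ifit2 with the next at 83.5 CPM. In air rats of that day rat 87 had 93.3 CPM of Ifit2 with the next at 83.1 CPM. In dust rats of day 27 at 10 mg/m3, rat 14 was lowest in Oasl at 6.80 CPM, with the next at 10.2 CPM. The other 4 were in air rats. Rat 18 had 7.07 CPM of Oas1k at day 1 of the 10 mg/m3 study with the next at 4.35 CPM, and rat 17 of that group was lowest in Gbp2 at 112.0 CPM with the next at 137.5 CPM. At day 1 of the 30 mg/m3 study rat 54 had 10.4 CPM of Oas1k with the next at 7.01 CPM, and at day 7 rat 65 was lowest in Isg15 at 23.1 CPM with the next at 28.7 CPM.

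The dust effects of the 2 studies differed by edgeR's interaction test in 3 cases, all lower at 30 than at 10 mg/m3. Bst2 differed by -1.19 and Trim25 by -0.61 at day 1, and Trim25 by -0.36 in the mean over the days, on the log2 scale. Each dose is a separate study, so dose and study cannot be told apart.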

How the results depend on the processing

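The absence of a called member in the dust and air comparisons held at each day of both studies under DESeq2, limma voom, RLE factors, no filter, the compared groups alone, both covariates and the limit on Alas2, except at day 1 of the 10 mg/m3 study, where leaving out the libraries that stand apart gave 2 and leaving out single rats gave 0 to 2. No paired analysis was possible because no rat number is shared between groups. Calls over time and between studies moved more. Without the libraries that stand apart the mean effect at 30 mg/m3 had 1 member, and the counts were 2 (air, day 1 to 7), 7 (air, day 1 to 27), 5 (dust, day 1 to 7) and 7 (dust, day 1 to 27) at 10 mg/m3, and 1 (air, day 1 to 7) and 6 (air, day 1 to 27) at 30 mg/m3. With no filter they were 1 and 1 (air, day 7 to 27 and day 1 to 27) and 0 (dust, day 1 to 7) at 10 mg/m3, 0 (dust, day 7 to 27) at 30 mg/m3, and 1 and 0 for the dose differences at day 1 and in the mean. With the mitochondrial rRNA covariate they were 0 and 0 (air, day 7 to 27 and day 1 to 27) at 10 mg/m3, 1 and 1 (air, day 1 to 7 and day 1 to 27) and 0 and 0 (dust, day 7 to 27 and day 1 to 27) at 30 mg/m3, and 0 and 0 for the dose differences at day 1 and in the mean. With the erythroid covariate they were 0, 0 and 0 (air, day 1 to 27, dust, day 1 to 7 and dust, day 1 to 27) at 10 mg/m3, 0 (dust, day 7 to 27) at 30 mg/m3, 0 for the mean dose difference and 1 between the air rats of the studies. DESeq2 gave 4 (air, day 1 to 27) and 3 (dust, day 1 to 27) at 10 mg/m3, and 4 (air) and 1 (dust) for day 1 to 7 at 30 mg/m3. Limma voom gave 2 (dust, day 1 to 27) at 10 mg/m3, and 1 (air, day 1 to 7) and 1 (dust, day 7 to 27) at 30 mg/m3. RLE factors gave 2 (dust, day 1 to 27) at 10 mg/m3 and 1 (air, day 1 to 7) at 30 mg/m3. The limit on Alas2 gave 0 (air, day 1 to 27), 0 (dust, day 7 to 27) and 3 (dust, day 1 to 27) at 30 mg/m3, 0 and 0 for the dose differences at day 1 and in the mean, and 5 between the air rats. With 1 rat left out in turn the counts ran from 0 to 1, 0 to 2 and 0 to 4 in air rats at 10 mg/m3 (day 1 to 7, 7 to 27 and 1 to 27), from 0 to 4 and 0 to 6 in dust rats (day 1 to 7 and 1 to 27), from 0 to 1 for the mean effect at 30 mg/m3, from 0 to 1 and 10 to 19 in its air rats (day 1 to 7 and 1 to 27) and from 0 to 3 and 3 to 13 in its dust rats (day 7 to 27 and 1 to 27). For the dose differences, where only day 1 rats were left out in turn, they ran from 0 to 3 at day 1 and from 0 to 1 in the mean, which had 2 without the libraries that stand apart, while the air rats between studies had 10. No rat was left out in turn for the air rats between studies. Some single values changed sign. These were Oas3 at -0.0508 (day 27, 10 mg/m3) with the erythroid covariate, Ifi44 at -0.141, Parp9 at -0.0506 and Trim25 at 0.0608 (day 1) and Ddx58 at 0.0375 (day 27) with the limit on Alas2 at 30 mg/m3, and Oasl2 at 0.0197 and Bst2 at 0.264 (day 7) and Bst2 at 0.00724 (day 27) with the mitochondrial covariate. Of these, Trim25 (day 1, 30 mg/m3) and Oas3 (day 27, 10 mg/m3) were not near 0 in the main fit, as given above. With 1 rat left out, values at 30 mg/m3 ran from -0.0018 to 0.108 for Parp9 (day 1), -0.0975 to 0.0133 for Stat2, -0.0895 to 0.0582 for Ddx58 and -0.143 to 0.0403 for Bst2 (day 27). Of the named members' values, 502 of 512 with 1 rat left out and 366 of 376 under other settings kept their direction and side of the threshold. Depth limits the rare interferon transcripts and Ifit1. Causes were not tested.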
